A study of Mus musculus with 6 samples.

Results

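The 10 genes described here encode secreted inflammatory cytokines and cytokines that signal through gp130. They were taken by gene name from a deposited table of 54532 genes, and all 10 were found: Il1a, Il1b, Il1rn, Il33, Il6, Il11, Lif, Ctf1, Tnf and Il10. Transcripts were sequenced from Prx1+ stromal cells of mouse compact bone, with 3 libraries from Zeb1Prx1 mice (Prx1-Cre+; ROSA-YFP; Zeb1fl/fl) and 3 from WT mice (Prx1-Cre+; ROSA-YFP; Zeb1wt/wt). Both genotypes therefore carried the Cre driver and the reporter, and in the mutants Zeb1 can be recombined in cells where Prx1-Cre, a driver of limb mesenchyme, is or has been on. Per the labels' protocols, collagenase-digested chips of femur and tibia were kept in culture and cells with a GFP signal were then sorted, so levels are those of cultured, untreated cells. The labels give neither the age of the mice nor whether the replicates of a genotype came from separate mice or cultures, so a p-value here reflects the variation among these libraries and nothing wider, and that variation may be technical.

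Interleukin-1 alpha and beta act through the receptor Il1r1 with its partner Il1rap and switch on NF-kappaB, while the antagonist encoded by Il1rn occupies the same receptor without signalling. Interleukin-33 is the ligand of Il1rl1 (ST2), and TNF signals through Tnfrsf1a and Tnfrsf1b. Interleukin-6, interleukin-11, leukaemia inhibitory factor (Lif) and cardiotrophin-1 (Ctf1) each use gp130, encoded by Il6st, together with a receptor of their own or with Lifr, and activate Stat3; interleukin-10 also activates Stat3 but uses Il10ra and Il10rb. In bone these ligands are known for their effects on both osteoblasts and osteoclasts.

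Values are FPKM (fragments scaled to gene length and to a library size), a scale on which levels of different genes can be compared. The library size implied by the values was 0.973 to 1.04 times the sum of assigned fragments, so it was not that plain total. Libraries held 14724357 to 18354894 assigned fragments. Zeb1 had 1.92, 1.59 and 2.84 FPKM in Zeb1Prx1 replicates 1, 2 and 3, against 6.61, 10.3 and 7.12 in WT replicates 1, 2 and 3, so each mutant library lay below each WT library. Its log2 change was -1.53 (SE 0.22, limma adjusted p = 0.229), so the targeted gene itself did not pass over all genes. Zeb1Prx1 replicate 2 had the highest FPKM sum, 1.34 times that of the lowest library. The sorted cells held stromal transcripts (Col1a1 at 1560 to 3368 FPKM in Zeb1Prx1 and 1432 to 1829 in WT) and abundant macrophage transcripts, with 20 of 20 listed macrophage genes tested and a summed level of 11242 to 22808 FPKM in Zeb1Prx1 and 13602 to 16675 in WT. Most of this sum came from Lyz2, at 7034 to 16368 FPKM in Zeb1Prx1 and 8118 to 10490 in WT. Of all 12534 tested genes, 6034 had a log2 change below 0. Of the 20 macrophage genes, 16 had a log2 change below 0 and 4 above (Lyz2, Tyrobp, Ctss and Aif1). Adgre1 (F4/80), among those with the larger falls, had 117 to 164 FPKM in Zeb1Prx1 and 215 to 250 in WT. Others of the 16, such as C1qa and Fcgr3, overlapped between the genotypes. Markers of neutrophils (summed level at most 1.79 FPKM), mast cells (0.172), lymphocytes (0.340) and endothelium (0.883) were at or near 0 in each library, with the neutrophil genes S100a9, Ngp and Retnlg and the mast cell genes Mcpt4, Tpsb2 and Fcer1a listed at 0 in all 6.

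The promoter windows below, from RefSeq (GRCm38.p6), run from 250 bases before to 50 bases after an annotated start site and are written 5′ to 3′ on the gene's strand. Those of Ctf1 and Lif are shown because they are the windows of the 10 genes with an E2-box, the CAGGTG sequence (CACCTG on the other strand) that Zeb1 and related repressors bind, and because these 2 genes gave different results. Capitals mark the E2-box. The Ctf1 window is chr7:127712453-127712752 (+ strand) and the Lif window chr11:4257318-4257617 (+ strand).
Ctf1: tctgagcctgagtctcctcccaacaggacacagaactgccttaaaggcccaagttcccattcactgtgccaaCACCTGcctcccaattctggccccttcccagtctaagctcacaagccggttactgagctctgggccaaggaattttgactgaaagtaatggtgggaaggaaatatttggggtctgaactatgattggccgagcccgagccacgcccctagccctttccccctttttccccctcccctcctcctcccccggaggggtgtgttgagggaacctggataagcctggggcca
Lif: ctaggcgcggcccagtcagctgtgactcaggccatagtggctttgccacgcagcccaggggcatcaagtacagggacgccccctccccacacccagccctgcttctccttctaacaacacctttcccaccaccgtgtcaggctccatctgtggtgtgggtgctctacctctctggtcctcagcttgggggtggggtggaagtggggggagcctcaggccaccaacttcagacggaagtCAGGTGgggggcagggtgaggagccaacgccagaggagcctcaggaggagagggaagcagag

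The E2-box lay at positions -178 to -173 of the Ctf1 window and -12 to -7 of the Lif window, with the start site counted as 0. Windows were in the table for 9 of the 10 genes, with 13 windows in all, and Il10 had none. An E2-box, searched on both strands, was present in 20.2% of the 32851 promoter windows of all genes. A match describes these letters and is not a binding site.

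Windows of Il6 and Il1b are shown because both genes followed the same libraries rather than the genotype, as described below. Capitals mark matches to the kappaB consensus, to the AP-1 motif TGANTCA and to TATAAA, all searched on both strands. The Il6 window is chr5:30012864-30013163 (+ strand) and the Il1b window chr2:129371090-129371389 (- strand).
Il6: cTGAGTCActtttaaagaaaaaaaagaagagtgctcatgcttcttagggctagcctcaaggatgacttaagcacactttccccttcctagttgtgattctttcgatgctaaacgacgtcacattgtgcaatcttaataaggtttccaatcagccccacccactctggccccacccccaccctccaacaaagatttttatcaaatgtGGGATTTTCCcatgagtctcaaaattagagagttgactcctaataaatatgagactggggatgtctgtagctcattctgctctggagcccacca
Il1b: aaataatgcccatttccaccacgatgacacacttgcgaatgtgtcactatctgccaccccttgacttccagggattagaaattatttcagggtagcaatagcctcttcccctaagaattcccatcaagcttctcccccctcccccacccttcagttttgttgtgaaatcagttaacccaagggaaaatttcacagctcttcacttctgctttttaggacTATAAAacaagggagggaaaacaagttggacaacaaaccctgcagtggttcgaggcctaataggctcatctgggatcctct

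In the Il6 window, the AP-1 match lay at -249 to -243 and the kappaB match at -44 to -35; the Il1b window held TATAAA at -31 to -26 and neither of the other motifs. The kappaB consensus was present in 4.51% of all windows, the AP-1 motif in 7.81% and TATAAA in 13.6%. The STAT motif TTCNNNGAA, present in 8.30% of all windows, was in none of the 13 windows of these genes. The AP-1 motif was also found in windows of Il1rn, Il1a, Il11 and Lif, and TATAAA in those of Il1rn, Il1a, Tnf and Il33.

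Ctf1 was the one cytokine of the 10 whose genotypes did not overlap. Il1rn had a higher mean in Zeb1Prx1 with overlapping libraries, and replicate 3 was its highest library in each genotype. Il1b and Il6 were high in 1 library of each genotype, and Lif and Il11 had nearly the same mean in both. Tnf had a lower mean in Zeb1Prx1 with overlapping libraries, and Il10, Il33 and Il1a were too low for the main test. Of the 10 genes, 7 reached the filter of at least 1 FPKM in at least 3 of 6 libraries. By limma on log2(FPKM + 1) adjusted by Benjamini-Hochberg across the 12534 genes tested, 0 of the 7 passed an adjusted p of 0.05, and so did 0% of all genes, of which 1897 had an unadjusted p under 0.05. At an unadjusted p under 0.05, limma counted 1 of the 7 as higher, where 8.15% of all genes were higher and 6.98% lower; voom on fragments recovered from FPKM called 3 genes, none of them among the 10. In 1 of the 7, each Zeb1Prx1 library lay above each WT library, against 12.6% of all tested genes, and in 0 of 7 below, against 11.8%. The median log2 change was 0.06 for the 7 cytokines and 0.02 for all tested genes.

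**Figure D1:**
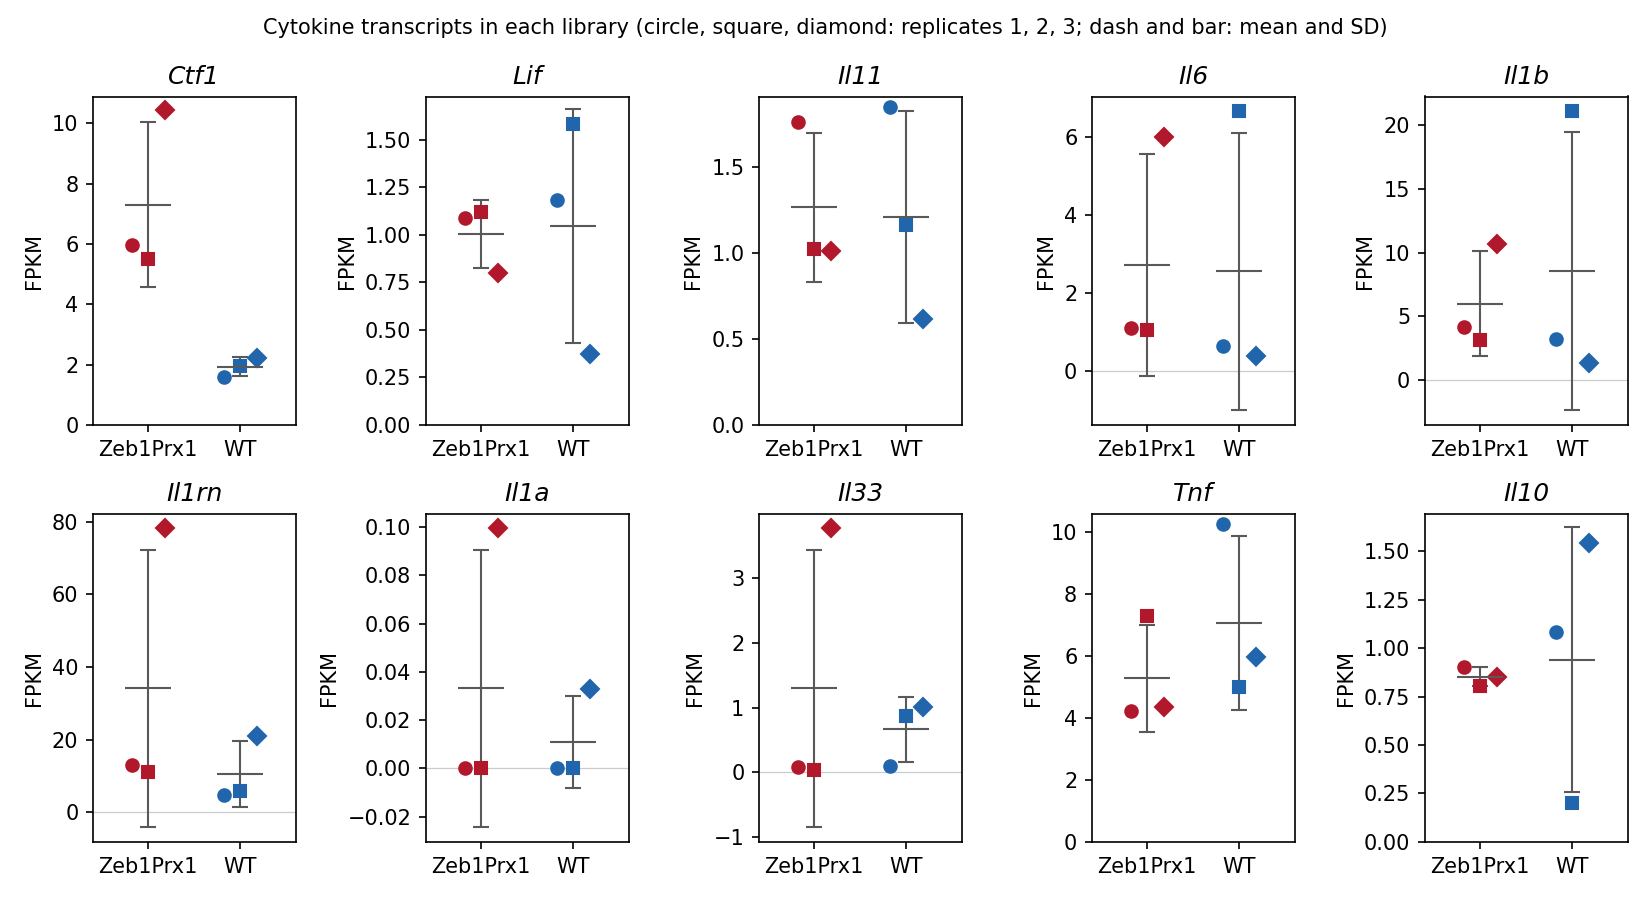
FPKM of the 10 cytokines in each library, with Zeb1Prx1 (red) left of WT (blue), a dash for the mean and a bar for the SD (n = 3 per genotype). The Ctf1 libraries of Zeb1Prx1 sit between 5.51 and 10.4 FPKM, all above the WT libraries at 1.59 to 2.21, while the libraries of the other 9 genes overlap.

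Among the gp130 cytokines, Ctf1 (ENSMUSG00000042340, mm10 chromosome 7, 127712736 to 127718192, + strand) encodes cardiotrophin-1, which signals through gp130 and Lifr and is known in mice as a product of osteoclasts. Ctf1 had 5.97, 5.51 and 10.4 FPKM in Zeb1Prx1 replicates 1 to 3, from 175, 181 and 291 fragments, against 1.59, 1.96 and 2.21 FPKM in WT replicates 1 to 3, from 53, 55 and 62 fragments. The lowest mutant library was thus above the highest WT library. The mean was 7.31 ± 2.73 FPKM in Zeb1Prx1 and 1.92 ± 0.315 in WT (SD, n = 3 each), 3.80-fold, and the log2 change was 1.47 (SE 0.24, 95% interval 0.90 to 2.03). It did not pass over all genes (limma adjusted p = 0.247). Over the 16 alternatives the log2 change was 1.21 to 1.83 and the limma adjusted p 0.0328 to 0.540, and the lowest, under 0.05, came with library weights. Those weights were 2.82 for Zeb1Prx1 replicate 3, the mutant library with the most Ctf1, and 0.226 for replicate 2, with the least. Without Zeb1Prx1 replicate 3 the fold of the means was 2.99. Ctf1 shares 87 exon bases with Ctf2 on the opposite strand, which had at most 0.175 FPKM in any library, so overlapping fragments could add little to the level of Ctf1.

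Markers of osteoclasts and stroma moved with Ctf1 in part. The summed level of 5 osteoclast genes was 50.8, 68.7 and 61.8 FPKM in Zeb1Prx1 replicates 1 to 3, against 28.8, 41.2 and 37.1 in WT replicates 1 to 3. Most of it came from the protease gene Ctsk, which is not restricted to osteoclasts, while Ocstamp, Dcstamp and Calcr had at most 0.234 FPKM in any library. Stromal genes showed more scatter, with a summed level over 13 stromal genes of 5451, 3070 and 5757 FPKM in Zeb1Prx1 replicates 1 to 3, against 2394, 3394 and 3350 in WT replicates 1 to 3. In bulk RNA, more cells of a type and more RNA per cell cannot be told apart, and the part of either cell type in the level of Ctf1 was not tested. Ratios to each of the 13 stromal genes, a scale added after the values were seen, were taken within each library. The result depended on the divisor: each Zeb1Prx1 library lay above each WT library for 7 of the 13 genes, and the genotypes overlapped for the other 6. Per 1000 FPKM of Prrx1, the limb mesenchyme gene from which the Cre driver takes its name, Ctf1 had 264, 291 and 476 FPKM in Zeb1Prx1 and 87.9, 64.2 and 106 in WT. Per 1000 FPKM of Col1a2, Ctf1 had 5.66, 8.14 and 11.3 FPKM in Zeb1Prx1 and 3.41, 3.21 and 3.45 in WT. These 2 ratios did not overlap, nor did those to Col1a1, Pdgfrb, Postn, Thy1 and Twist1. Relative to 1000 FPKM of Col3a1, Ctf1 had 10.9, 12.6 and 8.32 FPKM in Zeb1Prx1 and 9.91, 4.0 and 4.55 in WT, which overlapped. Relative to 1000 FPKM of Dcn, Ctf1 had 127, 177 and 18.1 FPKM in Zeb1Prx1 and 481, 9.62 and 73.2 in WT, so WT replicate 1 was the highest library. Ratios to Pdgfra, Lum, Cxcl12 and Lepr also overlapped. Per 1000 FPKM of the osteoclast list's Ctsk, Ctf1 had 122, 83.2 and 186 FPKM in Zeb1Prx1 and 57.4, 50.1 and 62.3 in WT, with no overlap. Ratios to Acp5 and to Dcstamp, a gene near 0, were also higher in each Zeb1Prx1 library. Ocstamp and Calcr were at 0 in some libraries and gave no usable ratio.

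Lif (ENSMUSG00000034394, chromosome 11, 4257557 to 4272514, + strand), a pleiotropic gp130 ligand that also uses Lifr, had 1.09, 1.12 and 0.798 FPKM in Zeb1Prx1, against 1.18, 1.58 and 0.374 in WT. The mutant values all lay inside the WT range. The mean was 1.00 ± 0.178 in Zeb1Prx1 and 1.05 ± 0.616 in WT (SD, n = 3 each), with a log2 change of 0.01 (95% interval -0.60 to 0.63). Lif and Ctf1 thus both hold an E2-box in the windows shown above, and their log2 changes were 0.01 and 1.47.

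Il11 (ENSMUSG00000004371, chromosome 7, 4772373 to 4782857, - strand), known in mice for supporting bone formation, had 1.76, 1.02 and 1.01 FPKM in Zeb1Prx1 and 1.85, 1.16 and 0.615 in WT. Replicate 1 was highest in each genotype, and the ranges overlapped. The log2 change was 0.06 (95% interval -0.55 to 0.66), from means of 1.26 ± 0.432 and 1.21 ± 0.617 FPKM in Zeb1Prx1 and WT (SD, n = 3 each). The intervals of Lif and Il11 reach past 0.5 in both directions, so changes of that size were not excluded here. At levels near 1 FPKM, the log2(FPKM + 1) scale understates the change in FPKM itself.

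Il6 (ENSMUSG00000025746, chromosome 5, 30013114 to 30019981, + strand), the prototype gp130 cytokine, had 1.10, 1.05 and 5.99 FPKM in Zeb1Prx1 replicates 1 to 3, against 0.630, 6.64 and 0.375 in WT replicates 1 to 3. Zeb1Prx1 replicate 3 and WT replicate 2 stood above the other 4 libraries. The mean was 2.71 ± 2.83 in Zeb1Prx1 and 2.55 ± 3.55 in WT (SD, n = 3 each), and the log2 change was 0.27 (95% interval -1.52 to 2.06, limma adjusted p = 0.868). Without WT replicate 2 the fold of the means was 5.40, and without Zeb1Prx1 replicate 3 it was 0.422.

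In the interleukin-1 family, Il1b (ENSMUSG00000027398, chromosome 2, 129364570 to 129371139, - strand), which encodes a cytokine typical of activated macrophages, followed the same libraries. Il1b had 4.18, 3.14 and 10.7 FPKM in Zeb1Prx1 replicates 1 to 3, against 3.27, 21.0 and 1.33 in WT replicates 1 to 3. Its highest library was WT replicate 2 and its next highest Zeb1Prx1 replicate 3, as for Il6. The mean was 6.0 ± 4.08 in Zeb1Prx1 and 8.55 ± 10.9 in WT (SD, n = 3 each), while the log2 change was 0.06 (95% interval -1.88 to 2.0), so the mean of FPKM and the mean of logs differed in direction. Without WT replicate 2 the fold of the means was 2.61, and without Zeb1Prx1 replicate 3 it was 0.428.

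Other inflammatory genes that were high in these libraries included the acute-phase genes Saa3 and Lcn2 and the nitric oxide synthase gene Nos2. They were named after their values were seen. Lcn2 had 31.3, 9.20 and 346 FPKM in Zeb1Prx1 replicates 1 to 3, against 0.0208, 39.9 and 0.248 in WT replicates 1 to 3. Saa3 had 1.86, 5.28 and 32.1 FPKM in Zeb1Prx1, against 0.126, 15.0 and 1.15 in WT. In each genotype the same library was highest for both genes as for Il6. The log2 change was 3.70 for Lcn2 (SE 1.74, limma adjusted p = 0.356) and 1.31 for Saa3 (SE 1.18, limma adjusted p = 0.578). For both genes the genotypes overlapped. Nos2 had 0.240, 0.138 and 0.564 FPKM in Zeb1Prx1, against 0.0371, 3.32 and 0.103 in WT. Other feedback and target genes were divided. Hp and Timp1 were highest in the same libraries. Ptgs2 was highest in replicate 1 of each genotype (23.5 FPKM in Zeb1Prx1 and 91.1 in WT), and Ptx3 in Zeb1Prx1 replicate 2 (237) and WT replicate 3 (128). Zeb1Prx1 replicate 3 and WT replicate 2 also had the highest level of the fibroblast proteoglycan Dcn in their genotype (576 and 204 FPKM, against 3.30 to 47.1 in the other 4). The listed stromal genes were divided in this. Pdgfra, Col3a1 and Lum were also highest in these libraries, and the remaining listed genes were not. Postn was lowest there, at 27.0 FPKM in Zeb1Prx1 replicate 3 (237 and 233 in replicates 1 and 2) and 88.7 in WT replicate 2 (220 and 151 in replicates 1 and 3). Whether Dcn-expressing cells account for any of the cytokine level was not tested.

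**Figure D2:**
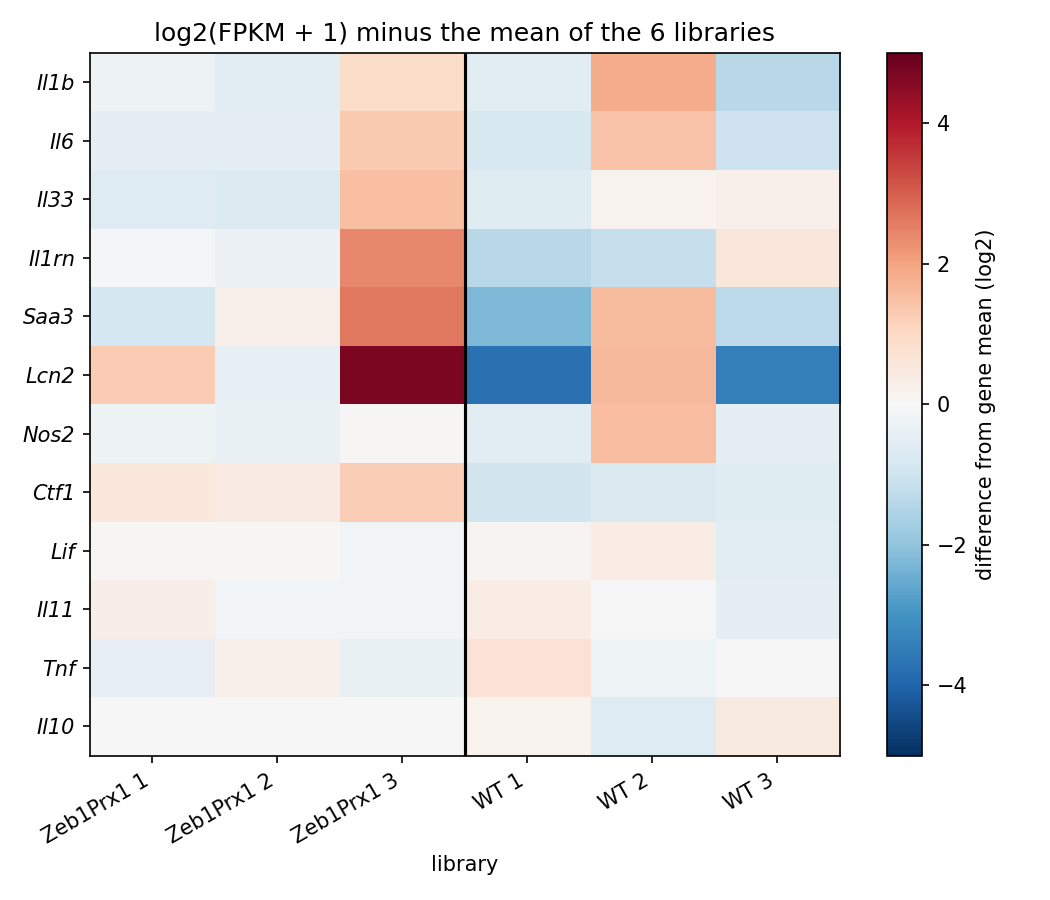
Log2(FPKM + 1) of 9 cytokines and 3 inflammatory genes in the 6 libraries (columns, Zeb1Prx1 left of WT), each shown as the difference from that gene's mean over the libraries (colour, log2 units). Il1b, Il6, Saa3 and Lcn2 are highest within each genotype in Zeb1Prx1 replicate 3 and WT replicate 2, whereas Ctf1 is above its mean in the 3 Zeb1Prx1 libraries and below it in the 3 WT libraries.

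Il1rn (ENSMUSG00000026981, chromosome 2, 24336853 to 24351494, + strand), encoding the interleukin-1 receptor antagonist, was the most abundant of the 10 in the mean of both genotypes. Il1rn had 13.1, 11.1 and 78.1 FPKM in Zeb1Prx1, against 4.68, 5.72 and 21.0 in WT. Replicate 3 was highest in each genotype, and WT replicate 3 exceeded 2 of the mutant libraries. The mean was 34.1 ± 38.1 FPKM in Zeb1Prx1 and 10.5 ± 9.11 in WT (SD, n = 3 each), 3.26-fold, with a log2 change of 1.34 (SE 0.82, 95% interval -0.60 to 3.27, limma adjusted p = 0.429). Without Zeb1Prx1 replicate 3 the fold was 1.16, and without WT replicate 3 it was 6.56. Over the 16 alternatives the log2 change of Il1rn was 0.47 to 2.29, with a limma adjusted p of 0.103 to 0.711. With the replicate number as a block, its limma p was 0.00239 unadjusted and 0.384 adjusted. The ratio of Il1rn to Il1b was 3.13, 3.53 and 7.32 in Zeb1Prx1 and 1.43, 0.272 and 15.7 in WT, so antagonist transcripts exceeded those of the agonist in 5 of 6 libraries.

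Il33 (ENSMUSG00000024810, chromosome 19, 29925114 to 29960718, + strand), an alarmin of stromal and barrier cells, did not reach the filter. Il33 had 4, 2 and 166 fragments in Zeb1Prx1 (0.0862, 0.0384 and 3.77 FPKM), against 5, 39 and 45 fragments in WT (0.0947, 0.879 and 1.02 FPKM). Zeb1Prx1 replicate 3 was above and the other mutant libraries were below every WT library. Its mean of 1.30 ± 2.14 FPKM in Zeb1Prx1, against 0.663 ± 0.497 in WT (SD, n = 3 each), rested on Zeb1Prx1 replicate 3, and without that library the Zeb1Prx1 mean was 0.0623 FPKM, 0.0940 times the WT mean. With no filter the log2 change was 0.13 (SE 0.64), and by voom on recovered fragments it was -0.88 (SE 1.46). Il1a (ENSMUSG00000027399, chromosome 2, 129299610 to 129309972, - strand), encoding interleukin-1 alpha, had 0, 0 and 3 fragments in Zeb1Prx1 and 0, 0 and 1 in WT, at or under the level of 3 fragments (0.0830 to 0.0995 FPKM) that a count of 0 allows. Il1a also shares 222 exon bases with Gm14023 on the opposite strand, and with strand use unknown even these few fragments are of uncertain origin.

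Tnf (ENSMUSG00000024401, chromosome 17, 35199381 to 35202007, - strand), the macrophage cytokine that activates NF-kappaB, had 4.21, 7.28 and 4.35 FPKM in Zeb1Prx1, against 10.3, 5.00 and 5.96 in WT. Zeb1Prx1 replicate 2 lay above 2 of the WT libraries, and the other mutant libraries lay below all 3. The mean was 5.28 ± 1.73 in Zeb1Prx1 and 7.08 ± 2.80 in WT (SD, n = 3 each), with a log2 change of -0.34 (95% interval -1.03 to 0.34, limma adjusted p = 0.553). Per 1000 FPKM of the macrophage receptor gene Csf1r, Tnf had 11.2, 21.3 and 17.3 FPKM in Zeb1Prx1 and 22.7, 8.87 and 13.1 in WT. The genotypes overlapped on this scale and in the ratio to each of the 20 macrophage genes. WT replicate 2, the highest library for Il1b, was the lowest of the WT libraries for Tnf.

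Il10 (ENSMUSG00000016529, chromosome 1, 131019845 to 131024974, + strand), an anti-inflammatory cytokine, had 0.903, 0.805 and 0.850 FPKM in Zeb1Prx1, against 1.08, 0.199 and 1.54 in WT. The mutant libraries lay close together inside the WT range, and WT replicate 2, the highest for Il1b and Il6, was the lowest for Il10, with 4 fragments. The mean was 0.852 ± 0.0490 in Zeb1Prx1 and 0.941 ± 0.683 in WT (SD, n = 3 each). Fragments summed to 55 in Zeb1Prx1 and 61 in WT. With no filter the log2 change was 0.00 (SE 0.29).

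Ordered by mean level in Zeb1Prx1, the 10 genes ran Il1rn, Ctf1, Il1b, Tnf, Il6, Il33, Il11, Lif, Il10 and Il1a. In WT the order was Il1rn, Il1b, Tnf, Il6, Ctf1, Il11, Lif, Il10, Il33 and Il1a, so Ctf1 was at rank 2 in Zeb1Prx1 and at rank 5 in WT. Most neighbours were not separated beyond their spread. In Zeb1Prx1 the library ranges of neighbours overlapped except between Il1rn and Ctf1 and between Il10 and Il1a, and in WT except between Il33 and Il1a.

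Receptor genes of these ligands showed no call, since 0 of 12 tested receptor genes passed (limma adjusted p from 0.290 to 0.946). At an unadjusted p under 0.05, 0 of 12 were higher and 1 was lower, beside 8.15% higher and 6.98% lower over all genes, and the median log2 change was -0.11. Il6ra, the ligand-binding receptor of interleukin-6, had 7.73, 5.33 and 4.05 FPKM in Zeb1Prx1, against 8.39, 10.3 and 9.09 in WT. Each mutant library lay below each WT library, and the log2 change was -0.64 (SE 0.22, limma adjusted p = 0.290). Tnfrsf1b, the second TNF receptor, also did not overlap, with 61.8, 64.7 and 49.1 FPKM in Zeb1Prx1 and 67.5, 87.5 and 65.8 in WT (log2 change -0.32, SE 0.19). These were 2 of 12 tested receptor genes, beside 11.8% of all genes.

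Csf1r, a defining macrophage gene, was itself lower in each mutant library, at 252 to 376 FPKM in Zeb1Prx1 and 453 to 564 in WT. Per 1000 FPKM of Csf1r, Il6ra had 20.6, 15.6 and 16.1 FPKM in Zeb1Prx1 and 18.5, 18.2 and 19.9 in WT, and these overlapped. Per 1000 FPKM of Csf1r, Tnfrsf1b had 164, 189 and 195 FPKM in Zeb1Prx1 and 149, 155 and 144 in WT, so on that scale each mutant library was higher. Over the 20 macrophage genes as divisors, Il6ra overlapped between the genotypes for 20, and Tnfrsf1b overlapped for 18 and was higher in each mutant library for 2, Csf1r and Cybb.

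Il6st (gp130) had 38.4, 19.7 and 64.2 FPKM in Zeb1Prx1, against 17.2, 48.8 and 82.9 in WT, with a log2 change of -0.17 (95% interval -1.65 to 1.30). Its libraries spanned a several-fold range within each genotype. Lifr, the second receptor chain for Lif and cardiotrophin-1, had 15.3, 8.20 and 5.15 FPKM in Zeb1Prx1 and 7.84, 10.5 and 9.08 in WT. The mean of Lifr was 9.55 in Zeb1Prx1 and 9.15 in WT, and of the related oncostatin M receptor gene Osmr 12.3 and 10.4. Il11ra1, for interleukin-11, averaged 12.4 FPKM in Zeb1Prx1 and 9.93 in WT. Cntfr, the receptor of ciliary neurotrophic factor, was under the filter and lower in each Zeb1Prx1 library, with 5, 28 and 5 fragments in Zeb1Prx1, against 91, 31 and 47 in WT.

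Il1rl1, the interleukin-33 receptor, had 10.6, 8.78 and 29.2 FPKM in Zeb1Prx1, against 7.23, 10.6 and 3.76 in WT, a log2 change of 0.97 (SE 0.49, limma adjusted p = 0.374). Zeb1Prx1 replicate 3, the library with the most Il33, also had the most Il1rl1. Il1r1 averaged 9.89 FPKM in Zeb1Prx1 and 8.52 in WT, Il1rap 1.29 and 1.61, and the decoy receptor gene Il1r2 had 9 fragments in all in Zeb1Prx1 and 6 in WT. Tnfrsf1a, the first TNF receptor, averaged 119 ± 13.1 FPKM in Zeb1Prx1 and 113 ± 17.6 in WT (SD, n = 3 each), the highest of the 14. The interleukin-10 receptor genes Il10ra and Il10rb averaged 29.2 and 21.2 FPKM in Zeb1Prx1, against 38.1 and 24.6 in WT.

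**Figure D3:**
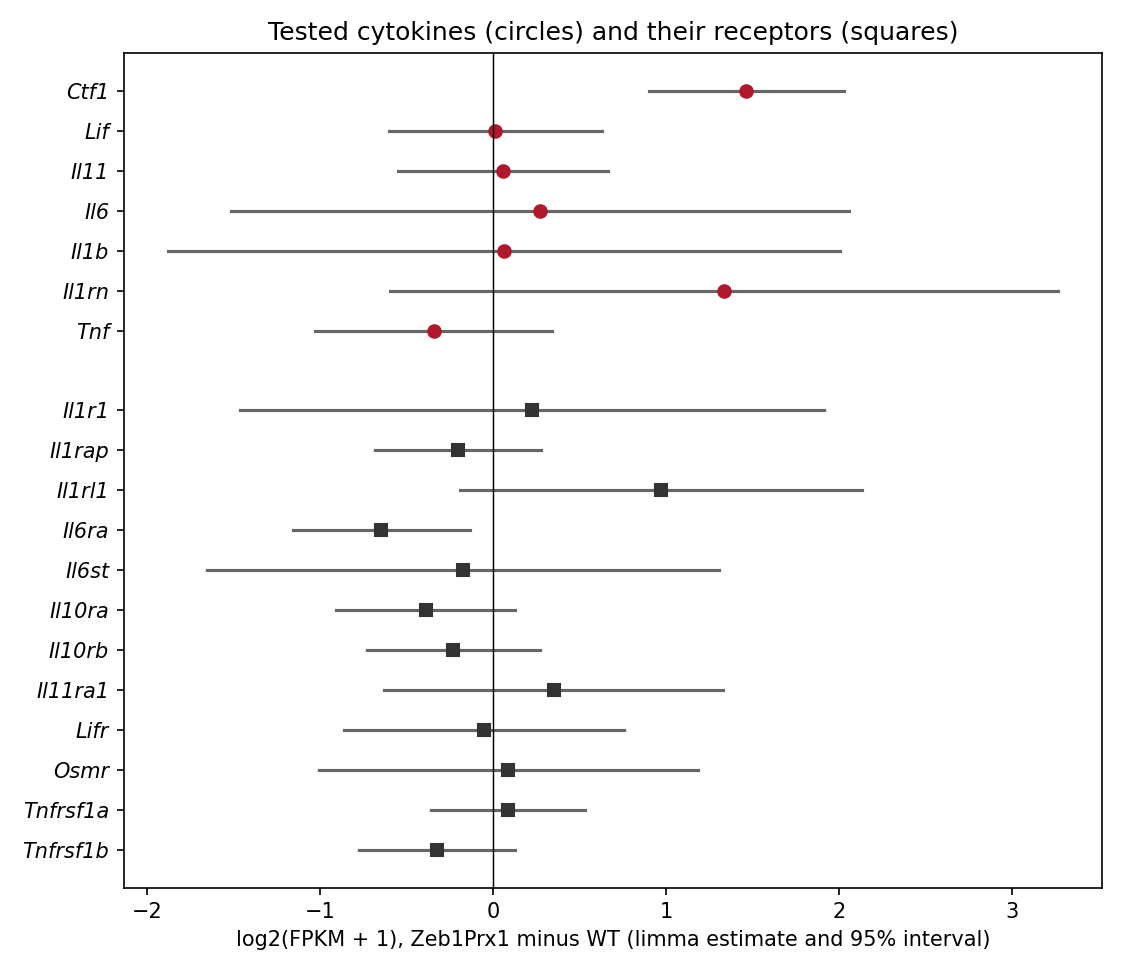
Log2 change (Zeb1Prx1 minus WT on log2(FPKM + 1), x axis) of the 7 tested cytokines (red circles) and 12 tested receptors (black squares), with limma 95% intervals that are not adjusted for the number of genes. The interval of Ctf1 (0.90 to 2.03) lies above 0 and that of Il6ra below it, and the other 17 include 0.

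Of 16 related ligands listed, 12 were in the table under their listed names and 6 were tested, of which 0 passed. Il18, an interleukin-1 family cytokine of macrophages, had 4.77, 6.19 and 6.41 FPKM in Zeb1Prx1, against 3.02, 2.59 and 3.47 in WT. Its genotypes did not overlap, and the log2 change was 0.75 (SE 0.16, limma adjusted p = 0.258). The gp130 ligand gene Osm had 1.21, 1.25 and 1.10 FPKM in Zeb1Prx1 and 1.95, 2.92 and 1.32 in WT, with each mutant library below each WT library (log2 change -0.46, SE 0.22, limma adjusted p = 0.357). Il18 and Osm were thus 1 of 6 tested ligands in each direction, beside 12.6% of all tested genes in the higher direction and 11.8% in the lower. Clcf1, which encodes another gp130 ligand, averaged 5.87 ± 2.06 FPKM in Zeb1Prx1 and 4.84 ± 1.94 in WT (SD, n = 3 each), and its genotypes overlapped.

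Genes that process or release these cytokines all had log2 changes below 0, in 10 of 10 tested, with a median of -0.37 and 0 called. Of all 12534 tested genes, 6034 were below 0 and 6500 above. In 5 of the 10 processing genes each Zeb1Prx1 library lay below each WT library, beside 11.8% of all genes. Leaving out single libraries gave 5 or 6 of 10, beside 14.5% to 21.2% of all genes, with 1 exception. Without Zeb1Prx1 replicate 2 it was 9 of 10, beside 17.0%. Nlrp3, the inflammasome sensor upstream of interleukin-1 beta cleavage, had 9.03, 8.41 and 6.46 FPKM in Zeb1Prx1, against 14.2, 10.7 and 14.4 in WT (log2 change -0.65, SE 0.18, limma adjusted p = 0.273). Nlrc4, another inflammasome sensor, averaged 2.24 ± 0.318 FPKM in Zeb1Prx1 and 3.44 ± 0.152 in WT (SD, n = 3 each). Adam17, the protease that sheds TNF, averaged 22.9 ± 3.16 in Zeb1Prx1 and 30.4 ± 1.69 in WT, and the related protease gene Adam10 27.9 ± 3.46 and 37.4 ± 2.57 (SD, n = 3 each).

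Signal transduction genes had log2 changes below 0 in 21 of 23 tested, beside 6034 of 12534 over all genes. Their median was -0.22, and 0 were called. In 10 of the 23 the Zeb1Prx1 libraries lay below those of WT, beside 11.8% of all genes. Leaving out single libraries gave 10 to 15 of 23, beside 14.5% to 21.2% of all genes. The 15 came without Zeb1Prx1 replicate 1, beside 21.2%. The ubiquitin ligase gene Traf6, which acts below the interleukin-1 receptor, averaged 3.40 ± 0.574 FPKM in Zeb1Prx1 and 4.85 ± 0.523 in WT (SD, n = 3 each). The kinase gene Irak1 of the same pathway averaged 15.5 ± 2.49 in Zeb1Prx1 and 20.8 ± 1.24 in WT, and Tyk2, a Janus kinase, 5.93 ± 1.34 and 8.63 ± 1.27 (SD, n = 3 each). Ripk1, a kinase of TNF signalling, averaged 8.89 ± 1.06 in Zeb1Prx1 and 11.3 ± 0.468 in WT (SD, n = 3 each). The limma adjusted p of these 4 genes was 0.304 to 0.329. Several genes of both lists are expressed in macrophages, whose listed markers were below 0 in 16 of 20, and the part of macrophage content in these values was not tested.

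Feedback and target genes were divided, with 16 of 25 tested above 0, beside 6500 of 12534 over all genes. Their median was 0.15, and 0 were called. Socs1, an inhibitor of Janus kinases, had 3.34, 2.65 and 3.24 FPKM in Zeb1Prx1, against 1.97, 1.72 and 2.17 in WT (log2 change 0.46, SE 0.15). Tnfaip3 (A20), an NF-kappaB inhibitor, had 1.44, 1.42 and 1.26 FPKM in Zeb1Prx1, against 2.09, 2.30 and 2.03 in WT (log2 change -0.40, SE 0.14). These were the tested genes of the list whose genotypes did not overlap, 1 of 25 in each direction, beside 12.6% of all tested genes in the higher direction and 11.8% in the lower. Ptx3, a secreted pentraxin, averaged 168 ± 73.5 FPKM in Zeb1Prx1 and 60.9 ± 59.0 in WT, and the protease inhibitor gene Timp1, a gp130 target, 645 ± 290 and 296 ± 161 (SD, n = 3 each). Socs3, the feedback inhibitor of gp130, had 31.3, 28.8 and 42.0 FPKM in Zeb1Prx1, against 14.3, 48.6 and 28.4 in WT (log2 change 0.30, limma adjusted p = 0.726); it was chosen after its values were seen. Its highest library in each genotype was the one with the most Il6. Csf3 (G-CSF), also chosen after its values were seen and under the filter, had 0.661, 0.510 and 0.463 FPKM in Zeb1Prx1, against 0.155, 0.0460 and 0.0922 in WT, and its genotypes did not overlap.

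**Figure D4:**
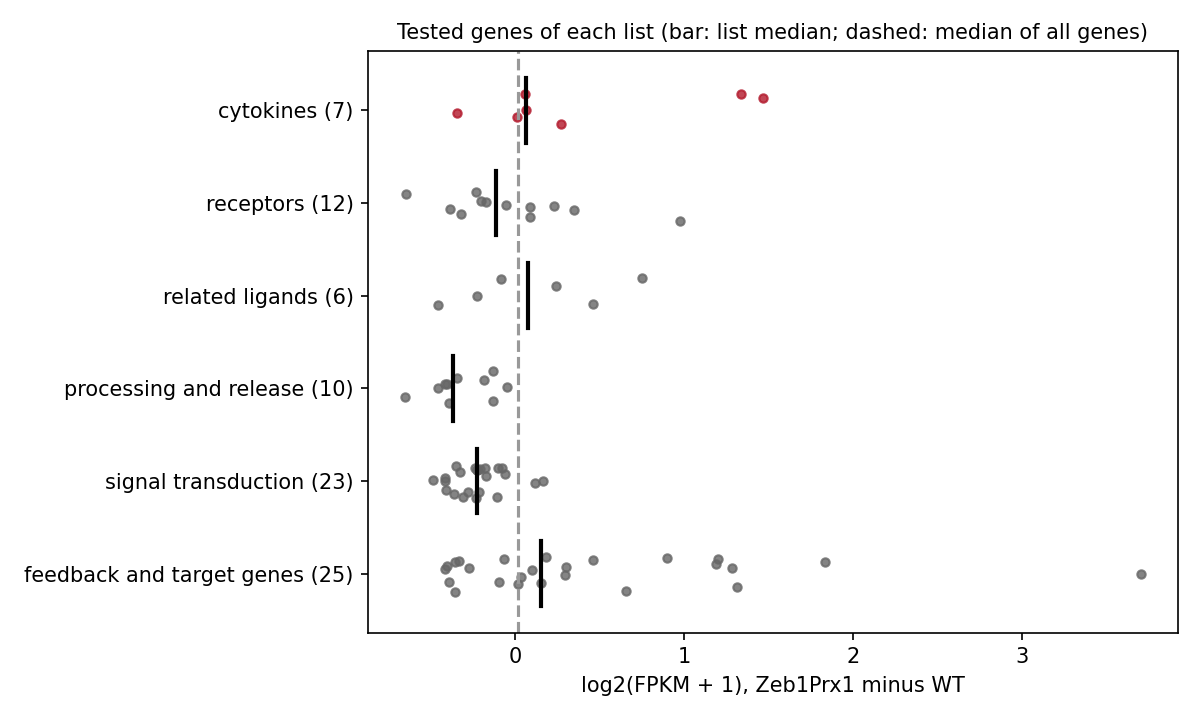
Log2 change (Zeb1Prx1 minus WT on log2(FPKM + 1), x axis) of each tested gene in the 6 lists (number tested in brackets), with bars for the list medians and a dashed line for the median of all genes (0.02). The 10 processing genes all lie below 0, and the cytokines spread from -0.34 to 1.47.

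The genes most like the 3 most variable cytokines were found by the mean absolute difference of log2(FPKM + 1), centred on each gene, over the 6 libraries. For Il1rn (SD 1.38 on the log2 scale) these were Matn4, G0s2 and Adgrg2, at mean differences of 0.20, 0.26 and 0.27. For Il1b (SD 1.17) these were Ereg, Il6 and Errfi1, at 0.24, 0.28 and 0.33. For Il6 (SD 1.08) these were Ereg, Nbl1 and Stac2, at 0.21, 0.22 and 0.28. Ereg, an epidermal growth factor family ligand, had 2.04, 2.26 and 8.83 FPKM in Zeb1Prx1, against 3.0, 12.5 and 1.14 in WT. Matn4, a matrilin, had 1.40, 1.63 and 10.5 FPKM in Zeb1Prx1, against 0.127, 0.453 and 2.54 in WT.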

How the data were processed

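The authors deposited 1 table of gene FPKM for 6 libraries, a unit taken from the table's name and its values, with genome build mm10 per the submitters' processing notes. The sources used here do not name an aligner, counting tool, strand setting or annotation release. Fragments were recovered as FPKM times gene length divided by each library's smallest step; 127408 of 127408 non-zero values came out whole (relative tolerance 1e-06), and limits from fragments cover counting error only. A count of 0 allows up to 3 fragments.

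Genes with at least 1 FPKM in at least 3 of 6 libraries (12534 of 54532) were tested by limma (3.58.1, under R 4.3.3) for Zeb1Prx1 minus WT; values entered as log2(FPKM + 1) and the variance trend followed intensity, with Benjamini-Hochberg adjustment over all of them and a threshold of 0.05. This scale understates changes of low genes. The members and lists were chosen with earlier results of these data known. Named genes were the members, Zeb1, the receptors, up to 4 genes of each other list with the smallest unadjusted p, and the nearest 3 protein-coding genes of the 3 most variable tested members. A gene that this rule names is not reported here. Alternatives were other pseudocounts (0.1, 0.5), other filters (none, or mean FPKM from 0.1 up), 2 other scalings, the replicate number as a block, no trend, library weights, voom on recovered fragments, and leaving out each library. Ratios to marker genes and counts of non-overlapping genes without each library were added after seeing the data.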

Additional observations from a re-analysis of the deposited data

How the results depend on the processing

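Of the 16 alternatives, library weights called 447 genes, 1 of them a member (Ctf1), voom on recovered fragments called 3 genes, and leaving out single libraries called 0 to 1 (1 without Zeb1Prx1 replicate 2). All others called 0, the replicate block included (0 genes, 0 members; 1347 genes at an unadjusted p under 0.05, against 1897 without the block). Same-numbered libraries deviated from their genotype means with correlations across genes of 0.03, -0.41 and 0.08. The labels link them only by number, and 3 libraries per genotype cannot show whether they were paired. Zeb1Prx1 replicate 3 deviated most like WT replicate 2 (0.46). The weights were 0.226 for Zeb1Prx1 replicate 2 and 2.82 for replicate 3. With equal FPKM sums the median log2 change of all genes was -0.12, against 0.02, and the log2 change turned to -0.061 for Il1b, -0.022 for Il11, -0.066 for Lif, -0.057 for Osmr and -0.082 for Tnfrsf1a. Relative to that median none of these 5 was below it. Median-of-ratios scaling left the median at 0.02, so it was close to the main fit. Library weights turned Lif to -0.034 and Il6st to 0.16. Leaving out single libraries gave ranges of -0.62 to 1.00 for Il1b, -0.31 to 1.06 for Il6, -0.15 to 0.26 for Il11, -0.25 to 0.21 for Lif, -0.47 to 0.73 for Il1r1, -0.78 to 0.32 for Il6st, -0.42 to 0.28 for Lifr, -0.36 to 0.54 for Osmr and -0.017 to 0.20 for Tnfrsf1a. Ctf1, Il1rn and Tnf kept their direction in each of the 16 alternatives. Without single libraries, 1 to 2 of the 7 cytokines were higher in Zeb1Prx1 with no overlap, beside 15.8% to 21.8% of all tested genes. In the lower direction the processing list had 5 to 9 of 10, with 9 only without Zeb1Prx1 replicate 2. The signal transduction list had 10 to 15 of 23, and all tested genes 14.5% to 21.2%. The cause of these shifts was not tested. Depth limits Il1a, Il33 and Il10, with at most 45 fragments in each library except Zeb1Prx1 replicate 3 for Il33.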
